A study of Mus musculus with 2 samples.

Results

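The genes described here are 7 channel genes of the islet cell membrane, out of 31053 genes listed in the files, and they were chosen by symbol: Abcc8, Kcnj11, Kcnk16, Cacna1c, Cacna1d, Cacna1a and Trpm5. All 7 were found in the files under a single identifier each. They were measured by droplet-based single cell RNA sequencing of dispersed islets, which captures the 3' ends of transcripts and counts molecules by unique molecular identifiers (UMIs). There was 1 library of WT mice and 1 library of mice labelled Npc1KO, a knockout in every tissue of Npc1, the lysosomal cholesterol transporter. Each library came from the islets of 3 female mice aged 2 weeks, pooled before sequencing, and the study's methods give a C57BL/6J background, with Npc1-/- mice and WT littermates bred from heterozygous parents. Since a single library stands for each genotype, differences between WT and Npc1KO could not be set against the spread between mice, no test was made, and all 95% intervals are exact ones that cover counting error only.

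In a β cell, glucose metabolism raises ATP, ATP closes the ATP-sensitive potassium (KATP) channel, the membrane depolarises, and voltage-gated calcium channels open and let in the calcium that triggers insulin release. The KATP channel is built from a regulatory sulfonylurea receptor, encoded by Abcc8, and a pore subunit, encoded by Kcnj11. Other channels tune the same process, among them the background potassium channel encoded by Kcnk16 and the calcium-activated cation channel encoded by Trpm5, which passes sodium and depolarises the cell.

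The filter asked for over 1000 genes and less than 50000 UMIs per cell, with mitochondrial UMIs below 10% and haemoglobin UMIs no higher than 0.1%. It left 4628 WT cells with 94096566 UMIs and 4269 Npc1KO cells with 94392651 UMIs. A cell was called an insulin, glucagon, somatostatin or PP cell by the hormone that took most of its UMIs, provided that it took at least 10%, where PP cells are those led by Ppy and Pyy, the genes of the PP-fold peptides. This gave 1833 WT and 1826 Npc1KO insulin cells, 1048 and 857 glucagon cells, 189 and 141 somatostatin cells, and 411 and 442 PP cells. The 9 β cell markers, which include Ins1, Ins2, Pdx1 and Slc2a2, summed to 564910 CPM (UMIs of the genes per 1000000 UMIs) in WT and 538127 CPM in Npc1KO insulin cells and to at most 35829 CPM in every other class compared, where most of them were still counted at 5 CPM or more. Most of this sum follows from the rule, since Ins1 and Ins2 took 51.9% of UMIs in WT and 49.3% in Npc1KO insulin cells. Of the markers outside the rule, Mafa was at 197.7 and 185.1 CPM in insulin cells and at most 11.8 CPM in the other hormone classes. Pdx1 set them apart less, at 141.4 and 133.2 CPM in insulin cells and 103.9 and 100.7 CPM in somatostatin cells. In insulin cells acinar and duct markers summed to 77.3 CPM in WT and 36.6 CPM in Npc1KO, whose part in the differences was not tested. Heat-shock genes took a median of 0.00703% of UMIs in WT and 0.00278% in Npc1KO insulin cells. Insulin cells were further divided by their share of Ppy and Pyy UMIs, hormones that insulin cells can also carry while the islet matures, into 1342 WT and 1005 Npc1KO cells under 1% and 491 and 821 cells at or above 1%. Npc1 itself was counted at 8.40 CPM (7.82 to 9.0) in the WT library and 4.14 CPM (3.74 to 4.57) in the library labelled Npc1KO, so that it was lower there but not absent. Whether the counted 3' end lies outside the changed part of the gene is not given in the sources used here, so this count does not check the label. The libraries shared 12 barcodes, 3 of them among kept cells.

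Of the 7 genes, Trpm5 differed most between the libraries in insulin cells and was the only one lower in Npc1KO, at 0.595 times its WT CPM. With the libraries given the same distribution of Ppy and Pyy shares, Trpm5 was at 0.701 times. Cacna1a was higher, and Abcc8, Kcnj11, Cacna1d and Kcnk16 were higher by less. Trpm5 was also the only one that was far above background in insulin cells alone. The other 6 were found in glucagon, somatostatin and PP cells at similar or higher CPM, except Cacna1d in Npc1KO. There Cacna1d was lower in somatostatin and PP cells than in insulin cells. Within insulin cells, Trpm5 and Cacna1c were lower and Kcnk16 was higher where Ppy and Pyy were high, in both libraries.

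**Figure D1:**
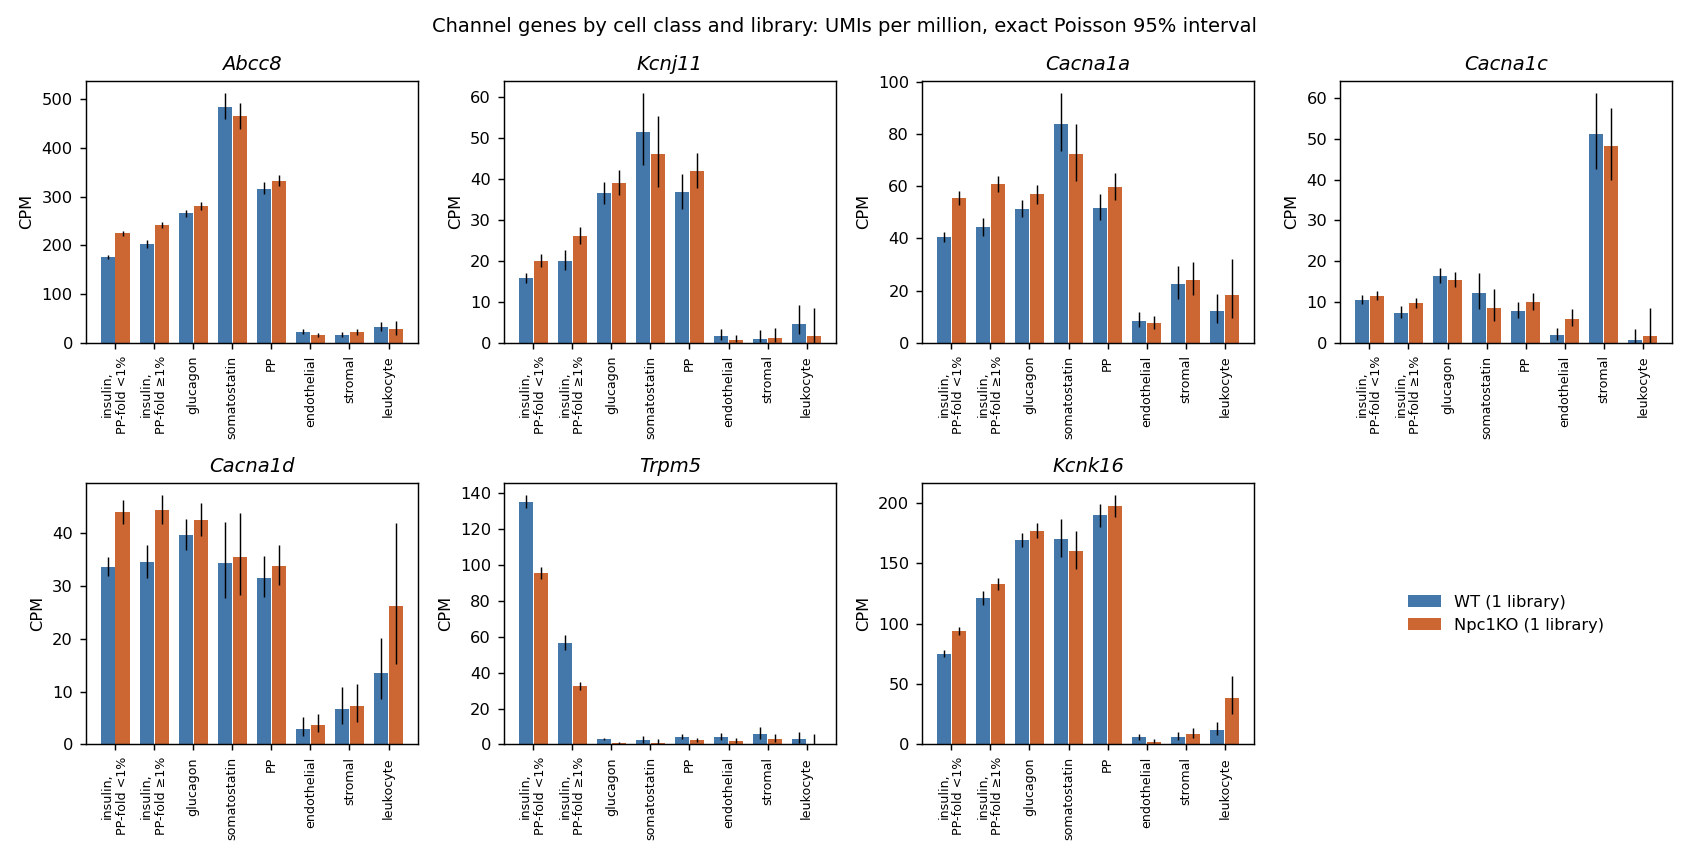
CPM of each of the 7 genes (vertical axes, separate scales from 0) in 8 cell classes of the WT and the Npc1KO library, as bars with exact Poisson 95% intervals and 1 library per genotype. Trpm5 stands out in the insulin cells, Cacna1c is highest in the stromal cells at 51.3 CPM in WT, and Abcc8, Kcnj11 and Cacna1a are highest in the somatostatin cells.

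Trpm5 and Kcnk16 moved in opposite directions with Ppy and Pyy, so the sequences around their starts are shown, taken from RefSeq on GRCm38.p6, which held such a window for 4 of the 7 genes. Each window runs 5' to 3' on the strand of the gene, from 250 bases before to 50 bases after the start, at chr7:143094593-143094892 for Trpm5 and chr14:20269220-20269519 for Kcnk16, both on the minus strand. In GENCODE the Kcnk16 gene starts at 20269199, outside its window, so RefSeq and GENCODE place this start differently. Capitals mark the E-box letters CANNTG, to which helix-loop-helix factors such as NeuroD1 bind, and the letters TGCTGA of the MAF recognition element and TAATTA of homeodomain factors were searched on both strands too.
Trpm5: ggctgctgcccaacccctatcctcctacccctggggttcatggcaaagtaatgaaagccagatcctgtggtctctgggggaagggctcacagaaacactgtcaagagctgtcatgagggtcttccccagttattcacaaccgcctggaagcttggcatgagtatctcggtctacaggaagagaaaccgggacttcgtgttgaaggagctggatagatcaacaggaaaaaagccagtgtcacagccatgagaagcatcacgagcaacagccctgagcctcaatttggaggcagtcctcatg
Kcnk16: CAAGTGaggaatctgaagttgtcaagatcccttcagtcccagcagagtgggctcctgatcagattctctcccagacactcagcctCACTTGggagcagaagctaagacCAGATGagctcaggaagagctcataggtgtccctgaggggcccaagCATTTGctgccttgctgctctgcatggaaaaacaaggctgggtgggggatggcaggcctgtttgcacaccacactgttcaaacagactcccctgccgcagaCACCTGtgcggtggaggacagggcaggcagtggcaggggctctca
The Trpm5 window held none of these letter patterns, and the Kcnk16 window held the E-box letters at 5 positions and neither of the other patterns. Of 32851 windows of this length, 72.3% held CANNTG, 19.5% held TGCTGA and 5.29% held TAATTA, so that the matches are a description of these letters and not of binding.

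The KATP subunit genes were described first. Abcc8 (ENSMUSG00000040136) lies on chromosome 7 from 46104523 to 46180033 and Kcnj11 (ENSMUSG00000096146) from 46093953 to 46100764, both on the minus strand of GRCm38, with 3758 bases and no annotated gene between them. In insulin cells Abcc8 was counted with 9993 UMIs in WT and 12546 UMIs in Npc1KO, which is 182.4 CPM (178.8 to 186.0) and 231.7 CPM (227.7 to 235.8). Kcnj11 was counted with 927 and 1224 UMIs, or 16.9 CPM (15.8 to 18.0) and 22.6 CPM (21.4 to 23.9). For both subunits the intervals of the 2 libraries did not overlap on this scale. The median gene of these cells was itself higher in Npc1KO, at 1.09 times its WT CPM. Relative to that gene, the ratio of Npc1KO over WT was 1.17 for Abcc8 and 1.23 for Kcnj11. The share of all genes with intervals apart was not counted, so the gap is not read as a trait of the KATP subunits.

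The same subunits were higher in every other endocrine class on the CPM scale. Abcc8 reached 265.6 CPM in WT and 281.0 CPM in Npc1KO glucagon cells, 316.5 and 332.7 CPM in PP cells, and 484.7 and 464.6 CPM in somatostatin cells. Kcnj11 followed with 36.5 and 39.0 CPM in glucagon cells, 36.7 and 41.9 CPM in PP cells, and 51.6 and 46.1 CPM in somatostatin cells. Glucagon and PP cells did not differ beyond the intervals for Kcnj11, and somatostatin cells stood highest in both libraries for Abcc8. Outside the endocrine classes, Kcnj11 did not exceed 4.68 CPM and Abcc8 did not exceed 32.7 CPM in the endothelial-, stromal- and leukocyte-marker cells.

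These CPM values carry the weight of the hormones, because hormone genes took 57.8% of all UMIs in WT and 55.8% in Npc1KO insulin cells but 34.9% and 34.7% in glucagon cells and 32.4% and 32.6% in somatostatin cells. Ratios between classes are therefore also given relative to the median gene of the comparison, whose log2 ratio of insulin over glucagon cells was -0.55 in WT and -0.45 in Npc1KO. On this relative scale Abcc8 was level between insulin and glucagon cells in WT, at a log2 ratio of 0.01 (-0.04 to 0.06), and slightly higher in Npc1KO insulin cells, at 0.17 (0.12 to 0.22). Kcnj11 stayed lower in insulin than glucagon cells, at -0.56 (-0.70 to -0.41) in WT and -0.34 (-0.48 to -0.20) in Npc1KO. Against somatostatin cells both were lower in insulin cells, Abcc8 by -0.67 and -0.37 and Kcnj11 by -0.87 and -0.40 in WT and Npc1KO.

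The proportion of the subunit transcripts is free of the hormone load, since it is a ratio of 2 genes in the same cells. It does not count channel subunits, because the genes may be captured with unequal efficiency, and it was compared between classes alone. Insulin cells held 10.8 Abcc8 UMIs per Kcnj11 UMI in WT (10.1 to 11.5) and 10.2 in Npc1KO (9.66 to 10.9). Glucagon cells held 7.29 (6.72 to 7.91) and 7.20 (6.64 to 7.82), below insulin cells in each library without overlap of the intervals. PP cells lay between, at 8.63 (7.65 to 9.76) and 7.94 (7.14 to 8.84), and overlapped with glucagon cells in both libraries. Somatostatin cells had 9.40 (7.89 to 11.3) and 10.1 (8.30 to 12.4), which overlapped with insulin cells. Within each of the 4 classes the intervals of the 2 libraries overlapped.

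**Figure D2:**
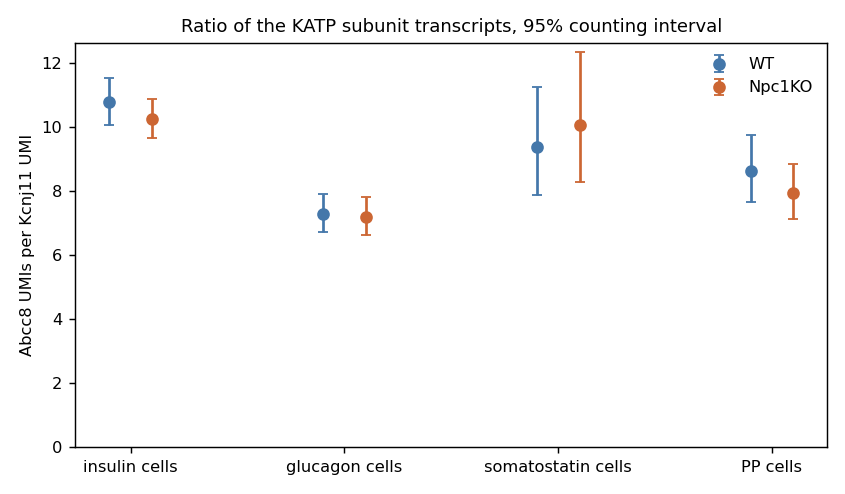
Abcc8 UMIs per Kcnj11 UMI (vertical axis, from 0) in the 4 endocrine classes, as points with 95% counting intervals for the WT and the Npc1KO library. The glucagon points, at 7.29 and 7.20, lie below the insulin points, at 10.8 and 10.2.

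Kcnk16 encodes TALK-1, a potassium leak channel of the tandem pore domain family that limits depolarisation and calcium entry. The gene (ENSMUSG00000023387) lies on chromosome 14 from 20261376 to 20269199. Insulin cells held 4750 UMIs in WT and 5965 UMIs in Npc1KO, or 86.7 CPM (84.2 to 89.2) and 110.2 CPM (107.4 to 113.0). The level was higher in glucagon cells, at 169.1 and 177.1 CPM, in somatostatin cells, at 170.2 and 160.4 CPM, and in PP cells, at 189.6 and 197.1 CPM. Relative to the median gene Kcnk16 was lower in insulin than in PP cells, at a log2 ratio of -0.67 (-0.75 to -0.59) in WT and -0.44 (-0.51 to -0.36) in Npc1KO. It was also lower than in glucagon cells, at -0.41 and -0.24. Against somatostatin cells it was lower in WT, at -0.23 (-0.37 to -0.09), and did not differ beyond the interval in Npc1KO, at 0.09 (-0.05 to 0.25). Glucagon and somatostatin cells did not differ beyond their intervals in either library, and in endothelial-marker cells the gene was at 5.76 and 2.41 CPM.

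The voltage-gated calcium channels were represented by 3 pore subunit genes. Cacna1c and Cacna1d encode L-type channels and Cacna1a encodes the P/Q-type channel. Cacna1c (ENSMUSG00000051331) lies on chromosome 6 from 118587240 to 119196418, Cacna1d (ENSMUSG00000015968) on chromosome 14 from 30039939 to 30491455, and Cacna1a (ENSMUSG00000034656) on chromosome 8 from 84388440 to 84640246. No gene of the files overlapped them on the same strand.

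Cacna1c was the rarest of these in the UMIs of insulin cells, and among the classes named by hormones or markers it was highest outside the endocrine cells. It stood at 51.3 CPM (42.6 to 61.2) in WT and 48.2 CPM (40.0 to 57.6) in Npc1KO stromal-marker cells, a class that includes the contractile cells of vessels. Insulin cells held 535 and 583 UMIs, or 9.76 CPM (8.95 to 10.6) and 10.8 CPM (9.91 to 11.7), so that the intervals of the libraries overlapped. Glucagon cells were higher, at 16.3 and 15.4 CPM, and somatostatin and PP cells ranged from 7.85 to 12.2 CPM. Scaled by the median gene, insulin and glucagon cells did not differ beyond the interval, at log2 ratios of -0.19 (-0.40 to 0.02) in WT and -0.07 (-0.28 to 0.14) in Npc1KO, and insulin cells were higher than PP cells, at 0.76 and 0.49. In endothelial-marker cells the 8 UMIs of WT and 32 UMIs of Npc1KO gave 1.84 CPM (0.796 to 3.63) and 5.93 CPM (4.05 to 8.37), which did not overlap. Stromal markers in these cells summed to 257 CPM in WT and 487 CPM in Npc1KO, and their part in this difference was not tested.

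Cacna1d was found in all endocrine classes. It had 1851 and 2385 UMIs in insulin cells, or 33.8 CPM (32.3 to 35.4) in WT and 44.0 CPM (42.3 to 45.8) in Npc1KO. The other endocrine classes ranged from 31.5 to 42.3 CPM over both libraries, and in Npc1KO the insulin and glucagon cells did not differ beyond their intervals. Relative to the median gene, Cacna1d was higher in insulin than in somatostatin cells, at a log2 ratio of 0.71 (0.42 to 1.04) in WT and 0.94 (0.64 to 1.28) in Npc1KO, and higher than in PP cells, at 0.56 and 0.79. On plain CPM this excess was absent in WT, where the ratio of insulin over somatostatin cells was 0.981 (0.801 to 1.23). In Npc1KO the CPM ratio of insulin cells was 1.24 (1.004 to 1.56) over somatostatin cells and 1.31 (1.16 to 1.48) over PP cells.

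Cacna1a had 2268 UMIs in WT and 3129 UMIs in Npc1KO insulin cells, or 41.4 CPM (39.7 to 43.1) and 57.8 CPM (55.8 to 59.8). In WT it was lower in insulin cells than in glucagon cells (51.4 CPM), PP cells (51.8 CPM) and somatostatin cells (84.0 CPM). In Npc1KO the insulin cells were level with glucagon cells (56.9 CPM) and PP cells (59.8 CPM) and below somatostatin cells (72.4 CPM). Set against somatostatin cells and the median gene, its log2 ratio was -0.28 (-0.48 to -0.08) in WT and 0.31 (0.09 to 0.54) in Npc1KO, and on plain CPM insulin cells were lower in both libraries. The choice of scale also turned the order against glucagon cells in WT for both Cacna1a and Cacna1d, with CPM ratios of insulin over glucagon cells of 0.805 and 0.853 and relative log2 ratios of 0.24 and 0.32.

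Trpm5 encodes a monovalent cation channel opened by intracellular calcium, known from taste cells and from β cells, where it adds to the depolarisation after glucose. The gene (ENSMUSG00000009246) lies on chromosome 7 from 143069153 to 143094642, and Tssc4 overlaps it on the other strand, which stranded 3' counting keeps apart. In insulin cells 6343 UMIs were counted in WT and 3732 UMIs in Npc1KO, or 115.8 CPM (112.9 to 118.6) and 68.9 CPM (66.7 to 71.2). In glucagon cells there were 55 and 15 UMIs, or 2.97 CPM (2.24 to 3.87) and 0.874 CPM (0.489 to 1.44). Somatostatin cells had 6 and 2 UMIs, and PP cells had 35 and 21 UMIs, at 4.29 and 2.25 CPM.

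The low Trpm5 counts outside insulin cells were set beside the insulin transcripts that those cells also carried. If every insulin UMI of a glucagon cell had come with Trpm5 in the proportion of insulin cells, Trpm5 would stand at 2.40 CPM in WT and 1.03 CPM in Npc1KO, and both values lie inside the measured intervals. The same calculation gave 3.58 and 1.24 CPM for endothelial-marker cells, which should lack the channel and were measured at 3.92 CPM (2.28 to 6.27) and 2.04 CPM (1.02 to 3.64). In PP cells of WT the calculated 2.76 CPM lay just below the measured interval of 2.99 to 5.97, which overlapped with that of endothelial-marker cells. The counts outside insulin cells were at the level of background and are not read as expression. No fold over these classes is given, since its size would follow the background.

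In comparisons between classes a gene was counted when it passed 2-fold relative to the median gene in the same direction in both libraries. Of the 7 genes, Trpm5 passed as higher in insulin cells against glucagon, somatostatin and PP cells and no other gene passed in any of these comparisons. Among all genes tested, 5.38% were higher and 6.10% lower in insulin than in glucagon cells, 4.52% and 7.08% against somatostatin cells, and 3.60% and 5.50% against PP cells.

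The comparison of Npc1KO with WT in insulin cells asks whether the channel genes differed with the loss of Npc1. The middle gene of the 8858 that reached 5 CPM in either library had a log2 ratio of Npc1KO over WT of 0.12, and each ratio is given relative to it. A gene was counted when it was at least 25% higher than this middle gene, or lower by the same factor (20%), here called the fold limit. Trpm5 was lower in Npc1KO at a log2 ratio of -0.87 (-0.93 to -0.81), and only 49 genes lay further down. Without cells that carried 0.1% or more of heat-shock UMIs the ratio was -0.86. The ratio over all insulin cells also holds the larger number of Npc1KO cells with high Ppy and Pyy. In cells under 1% of Ppy and Pyy, Trpm5 ranked 143 from the lowest of 8746 genes. In cells at or above 1% it ranked 48 from the lowest of 9090. Cacna1a was higher at 0.36 (0.28 to 0.44), a ratio of 1.28 whose interval began below the fold limit. Kcnj11 stood at 0.30 (0.17 to 0.42), Cacna1d at 0.26 (0.17 to 0.35), Abcc8 at 0.23 (0.19 to 0.26) and Kcnk16 at 0.23 (0.17 to 0.28), all within the fold limit but with intervals above 0. Cacna1c was level, at 0.02 (-0.15 to 0.19).

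Past the fold limit, 1 of the 7 genes was higher (Cacna1a) and 1 was lower (Trpm5), where 7.46% of all genes tested were higher and 6.29% lower. A limit of 15%, added after the values were seen, took in 5 of the 7 genes as higher, namely Abcc8, Kcnj11, Cacna1a, Cacna1d and Kcnk16, where 17.9% of all genes were higher by as much. Without the reference to the median gene, the CPM ratio of Npc1KO over WT was 1.27 (1.24 to 1.30) for Abcc8, 1.34 (1.23 to 1.46) for Kcnj11, 1.40 (1.32 to 1.47) for Cacna1a, 1.30 (1.23 to 1.39) for Cacna1d, 1.27 (1.22 to 1.32) for Kcnk16, 1.10 (0.979 to 1.24) for Cacna1c and 0.595 (0.572 to 0.620) for Trpm5. On that scale 5 genes were past the limit as higher and Trpm5 as lower, where 17.8% of all genes were higher and 2.78% lower.

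**Figure D3:**
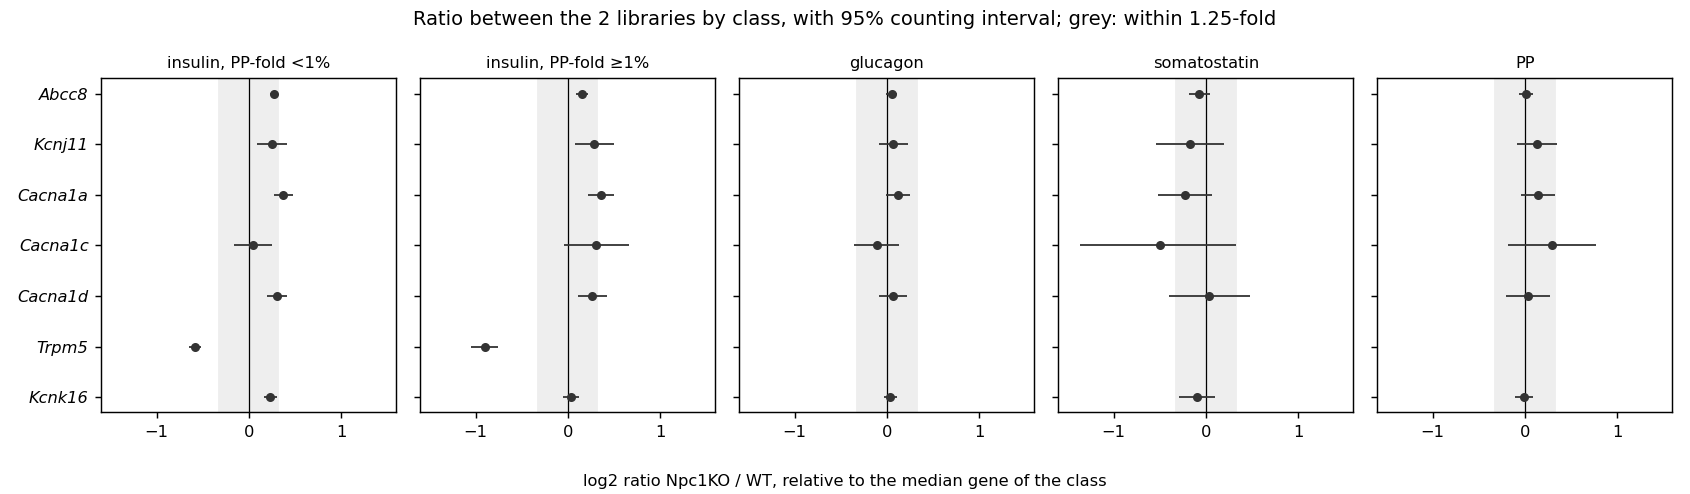
Log2 ratio of Npc1KO over WT relative to the median gene (horizontal axis) for each gene in 5 classes, as points with 95% counting intervals; genes under 5 CPM in both libraries are not drawn and the grey band spans the fold limit either way. Trpm5 lies left of the band in both classes of insulin cells, and in glucagon and PP cells every drawn point lies inside it.

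The same comparison was made in each kind of insulin cell, because Npc1KO held more of the cells with high Ppy and Pyy. In cells under 1% of Ppy and Pyy, Trpm5 was at 135.4 CPM in WT and 95.4 CPM in Npc1KO, a relative log2 ratio of -0.59 (-0.65 to -0.52). In cells at or above 1% it was at 56.6 and 32.5 CPM, a ratio of -0.90 (-1.05 to -0.75). Trpm5 was thus lower in Npc1KO in both kinds of cells, and the ratio over all insulin cells also held the larger number of cells with high Ppy and Pyy.

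Cacna1a was higher in both kinds too, at 0.38 (0.28 to 0.47) and 0.36 (0.22 to 0.50). Past the fold limit, the count was again 1 higher and 1 lower of 7 in each kind, with the same 2 genes, where 8.54% of all genes were higher and 7.64% lower in cells under 1% and 10.5% and 7.19% in cells at or above 1%. Abcc8 stood at 0.27 and 0.15, Kcnj11 at 0.25 and 0.28, and Cacna1d at 0.30 and 0.27. Kcnk16 stood at 0.23 (0.16 to 0.31) in cells under 1% and at 0.04 (-0.05 to 0.12) in cells at or above 1%. Cacna1c stood at 0.04 (-0.16 to 0.25) in cells under 1%. In cells at or above 1% it stood at 0.31 (-0.04 to 0.66), on 100 WT and 221 Npc1KO UMIs, and was past the fold limit in 6 of 15 alternatives. Both intervals of Cacna1c included 0.

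In the other endocrine classes the same comparison of Npc1KO with WT was made. Trpm5 was below 5 CPM in these classes and was not tested, which left 6 genes. In glucagon cells 0 of 6 passed the fold limit, where 8.70% of all genes did, and the relative log2 ratios ran from -0.11 for Cacna1c to 0.12 for Cacna1a. In PP cells 0 of 6 passed, where 17.7% of all genes did, and the ratios ran from -0.01 for Kcnk16 to 0.29 for Cacna1c. In somatostatin cells, the smallest class, 1 of 6 passed, where 31.3% of all genes did: Cacna1c was lower at -0.49 on 33 WT and 21 Npc1KO UMIs, with an interval of -1.37 to 0.33 that included 0. The ratios of Cacna1a, 0.36 in insulin cells and 0.12 (-0.01 to 0.25) in glucagon cells, had intervals that did not overlap. The same held for Abcc8, at 0.23 and 0.05 (-0.01 to 0.11), and Kcnk16, at 0.23 and 0.04 (-0.03 to 0.11). Those of Kcnj11, Cacna1d and Cacna1c overlapped. Whether such a difference between classes exceeds the spread between mice was not tested. The share of all genes with intervals apart in this way was not counted, so it is not read as a trait of the channel genes.

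Within insulin cells, cells at or above 1% of Ppy and Pyy were compared with those under 1%, each library for itself. Trpm5 was lower in the former at a relative log2 ratio of -1.41 (-1.52 to -1.30) in WT and -1.73 (-1.85 to -1.62) in Npc1KO. Cacna1c was lower at -0.68 (-1.02 to -0.37) and -0.43 (-0.68 to -0.18). Kcnk16 was higher at 0.53 (0.44 to 0.62) and 0.33 (0.25 to 0.40). These 3 passed the fold limit in both libraries, 1 higher and 2 lower, where 4.48% of all genes were higher and 3.92% lower. Kcnk16 in Npc1KO lay at the limit and stayed past it in 7 of 15 alternatives, with ratios from 0.26 to 0.50, while Trpm5 stayed past it in all 15 in each library and Cacna1c in 15 of 15 in WT and 14 of 15 in Npc1KO.

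The KATP subunits and the remaining calcium channels stayed within the fold limit in this comparison. Abcc8 stood at 0.05 in WT and -0.08 in Npc1KO, Kcnj11 at 0.18 and 0.21, Cacna1a at -0.02 and -0.05, and Cacna1d at -0.12 and -0.17. In WT, cells at or above 1% had a lower median number of UMIs per cell in each step of Ppy and Pyy than the cells under 0.3%, with 27698 UMIs at 1 to 3% against 32181 UMIs, and insulin took 49.5% against 54.2% of UMIs. Markers of other endocrine cells moved with the division as well. The 4 markers of somatostatin cells summed to 253 CPM under 1% and 7499 CPM at or above 1% in WT and to 295 and 4881 CPM in Npc1KO, with Hhex at 0.584 and 16.9 CPM and at 0.191 and 8.20 CPM. The 7 markers of glucagon cells summed to 2985 and 7794 CPM in WT and 2560 and 4452 CPM in Npc1KO. The comparison was repeated without insulin cells in which Gcg or Sst took 2% or more of UMIs. Ppy and Pyy were not limited in it. The ratios in WT and Npc1KO were then -1.43 and -1.71 for Trpm5, -0.70 and -0.39 for Cacna1c, and 0.52 and 0.32 for Kcnk16. The last of these was below the fold limit in Npc1KO. The part of depth and insulin share in the ratios was not tested.

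Across 5 steps of the Ppy and Pyy share, Trpm5 was lower at each further step. In WT it was 150.7 CPM (146.2 to 155.4) in 868 cells under 0.3%, 105.1 CPM at 0.3 to 1%, 64.1 CPM at 1 to 3% and 42.4 CPM (36.2 to 49.3) in 140 cells at 3 to 10%. In Npc1KO it was 111.4 CPM (106.7 to 116.3) in 587 cells, then 72.0, 40.1 and 20.8 CPM, and 14.8 CPM (8.76 to 23.4) in 45 cells at 10% or more. The last step held 16 cells in WT and is not read there. At each of the 4 steps that can be read in both libraries, Npc1KO was below WT without overlap of the intervals on plain CPM. How many of all genes had intervals apart at these steps was not counted.

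Kcnk16 went the other way. In WT it went from 68.5 CPM (65.4 to 71.6) under 0.3% through 88.6 and 113.1 CPM to 137.1 CPM (125.8 to 149.1) at 3 to 10%, and in Npc1KO from 88.2 CPM (83.9 to 92.5) through 101.8, 121.0 and 148.8 CPM to 173.2 CPM (150.6 to 198.2). On plain CPM the intervals of the libraries were apart at the first 2 steps and overlapped at the next 2 steps. The median gene was itself higher in Npc1KO, at 1.06 times its WT CPM in cells under 1% and 1.07 times in cells at or above 1%. The share of all genes with intervals apart at these steps was not counted. Abcc8 in WT was 169.9, 187.2 and 176.9 CPM over the first 3 steps and 258.6 CPM (243.0 to 274.9) at 3 to 10%, where Npc1KO, at 252.0 CPM (240.7 to 263.7), was no higher. The relative log2 ratio of Npc1KO over WT for Abcc8 in cells at or above 1% was 0.15 and depended on the cells kept. With the division at 2% in place of 1% it was 0.0045, the lowest of 15 alternatives. Without cells in which Gcg or Sst took 2% or more of UMIs it was 0.24, and with doublets removed it was 0.27, the highest. Abcc8 in Npc1KO was between 222.7 and 228.8 CPM over the first 3 steps and reached 314.4 CPM (283.7 to 347.5) at 10% or more, where insulin took only 26.8% of UMIs.

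**Figure D4:**
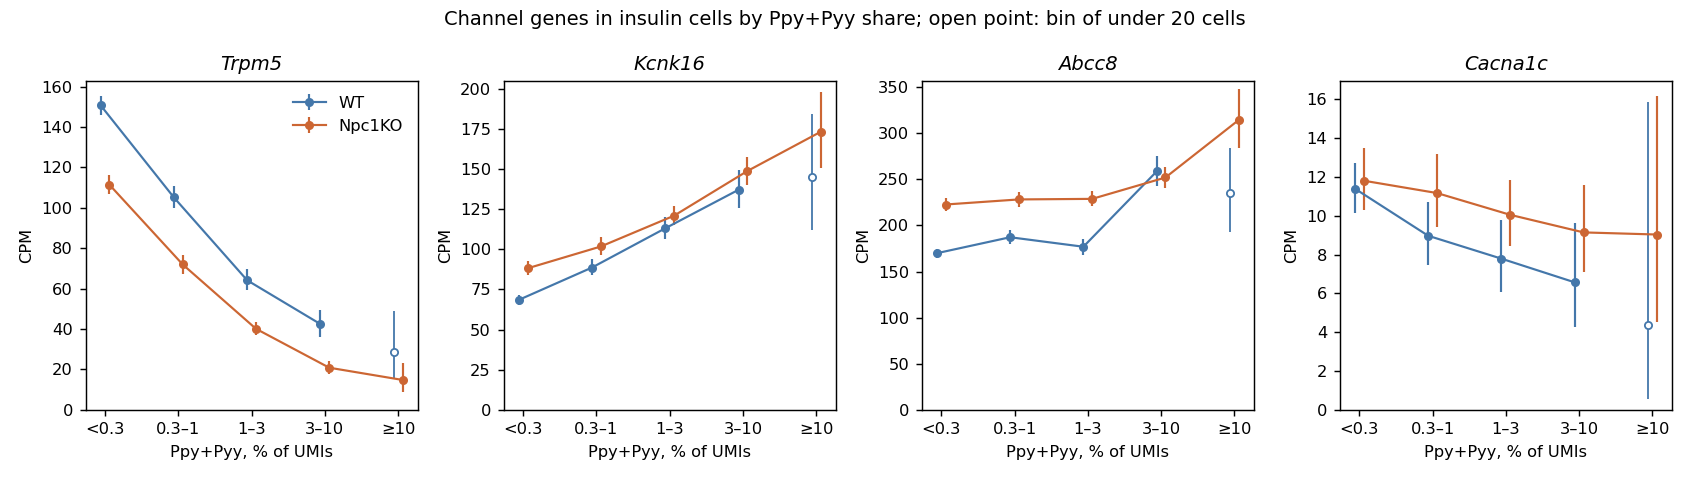
CPM of Trpm5, Kcnk16, Abcc8 and Cacna1c (vertical axes, from 0) in insulin cells by the share of UMIs from Ppy and Pyy (horizontal axis, 5 steps), for the WT and the Npc1KO library with exact Poisson 95% intervals; the open point is a step of 16 cells. Trpm5 goes from 150.7 down to 42.4 CPM in WT over the first 4 steps and Kcnk16 from 68.5 to 137.1 CPM.

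When the libraries were given the same distribution over the 5 steps, the CPM ratio of Npc1KO over WT for Trpm5 was 0.701, against 0.595 without this adjustment. The adjusted ratio was 1.36 for Cacna1a, 1.31 for Cacna1d, 1.27 for Kcnj11, 1.24 for Abcc8, 1.16 for Kcnk16 and 1.16 for Cacna1c. Kcnk16 thus lay closer to 1 with the adjustment than without it, while Cacna1a and Cacna1d moved little. Cacna1c lay further from 1 with the adjustment, at 1.16 against 1.10 without it.

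The share of cells with a UMI gave the same order for Trpm5 between the libraries. All cells were brought down to 5000 UMIs by random draws, with 26 WT and 22 Npc1KO insulin cells too shallow for it. Trpm5 was found in 39.0% (36.7 to 41.3) of WT and 25.9% (23.9 to 28.0) of Npc1KO insulin cells. Endothelial-marker cells, set beside them for free RNA, gave 1.57% and 1.24%. Without thinning the shares in insulin cells were 82.4% and 65.2%, at median depths of 30417 and 30094 UMIs, and those in endothelial-marker cells 3.95% and 2.29%, at 7716 and 10233 UMIs.

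The other genes were found in more Npc1KO than WT insulin cells after thinning, except that the intervals overlapped for Cacna1c and Kcnj11. These shares are not relative to the median gene, whose log2 CPM ratio of Npc1KO over WT was itself 0.12. The part of all genes found in more Npc1KO cells was not counted, so the shift is not read as particular to the channel genes. Abcc8 was found in 57.6% (55.2 to 59.8) and 66.2% (64.0 to 68.4), Kcnk16 in 34.0% and 43.8%, Cacna1a in 18.6% (16.9 to 20.5) and 24.4% (22.4 to 26.4), and Cacna1d in 14.5% and 19.7%. Kcnj11 was found in 8.69% (7.43 to 10.1) and 11.0% (9.57 to 12.5), and Cacna1c in 4.26% and 5.21%. Before thinning these shares were 96.8% and 96.5% for Abcc8, 86.7% and 91.2% for Kcnk16, 67.5% and 75.7% for Cacna1a, 61.5% and 69.7% for Cacna1d, 38.7% and 45.8% for Kcnj11, and 24.6% and 25.6% for Cacna1c. In endothelial-marker cells the thinned shares of these 6 genes ranged from 0.495% for Kcnj11 in Npc1KO to 8.36% for Abcc8 in WT.

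The genes whose levels followed each channel most closely were looked up over 16 points, which were 8 classes in 2 libraries, among 9655 genes. The points share libraries and the contrast between endocrine and other cells, so the correlation of log2 CPM is a description. Abcc8 and Kcnj11 were each other's closest gene, at Pearson's r = 0.991. Trpm5 went with Ucn3, which encodes the maturity marker urocortin 3 (r = 0.980), with Ins2 (r = 0.969) and with Gpr158 (r = 0.966). Ins2 was part of the rule that set the insulin classes, so its r with a gene found in insulin cells follows in part from that rule. Kcnk16 went with the secretory granule genes Scg5 (r = 0.994), Resp18 (r = 0.994) and Ptprn (r = 0.992). Cacna1d was closest to Disp2, Pde3b and Upb1 (r from 0.977 to 0.983), Cacna1a to 2310030G06Rik, Fuom and Pex11a (r from 0.985 to 0.988), and Cacna1c to Map7d2, Plxnb1 and Chn1 (r from 0.945 to 0.969).

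Other channel and calcium-handling genes were taken from lists of 92 genes in all, of which 38 were at or above 5 CPM in insulin cells of either library. Between the libraries, 9 of the 38 were higher in Npc1KO past the fold limit, with a median relative log2 ratio of 0.19, against 7.46% of all genes and a median of 0 by construction. In cells under 1% of Ppy and Pyy the median of the tested genes was 0.22. In those at or above 1%, of which Npc1KO held more, it was 0.11. Among potassium channels, Kcnj12 (an inward rectifier), Kcnh6 and Kcnk3 were higher, with Kcnj12 at 5.42 and 8.01 CPM and Kcnk3, a leak channel of the family of Kcnk16, at 3.54 and 7.09 CPM. Kcnh6 was at 4.54 and 6.96 CPM. Kcnh6 and Kcnk3 reached 5 CPM in Npc1KO alone, so they entered the count only through the library where they were high. The calcium channel subunit Cacna2d1, which helps to bring pore subunits to the membrane, was higher at 60.1 and 84.9 CPM, a relative log2 ratio of 0.38. Among sodium channels, Scn8a and the leak channel Nalcn were higher, with Scn8a at 8.09 and 11.6 CPM and Nalcn at 6.28 and 8.85 CPM.

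Of the calcium store and pump genes, Itpr1 and Itpr2, which encode calcium release channels of the endoplasmic reticulum, and the plasma membrane pump gene Atp2b4 were higher past the fold limit. Itpr2 was at 14.5 and 21.9 CPM, and Itpr1 at 24.9 and 35.4 CPM. Atp2a2, the endoplasmic reticulum calcium pump gene and the most abundant on this list, was level at 305.4 and 318.6 CPM, a relative log2 ratio of -0.06. None of 3 tested TRP channel genes passed, and Trpm4, which encodes the channel most like Trpm5, stood at 10.5 and 12.9 CPM (log2 ratio 0.17). None of the 6 tested genes of anion and HCN channels passed, with Clcn3 highest at 56.2 and 68.3 CPM. Of the genes named as higher, Kcnj12, Kcnh6, Cacna2d1 and Itpr2 also passed in both kinds of insulin cells divided by Ppy and Pyy. Scn8a, Atp2b4 and Itpr1 passed only in cells under 1%, and Nalcn only in those at or above 1%. Kcnk3 was below 5 CPM in cells under 1%, at 1.92 CPM in WT and 4.05 CPM in Npc1KO, and was not tested there. In cells at or above 1% it was at 8.42 and 11.3 CPM and did not pass.

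In the comparison by Ppy and Pyy within insulin cells, 7 of 39 tested genes of these lists were higher and 3 were lower past the fold limit in both libraries, where 4.48% and 3.92% of all genes were. The higher ones were Kcnmb4, Kcnn3, Kcnk1, Kcnk3, Scn3a, Nalcn and Itpr1, of which Scn3a stood at log2 ratios of 1.08 in WT and 0.97 in Npc1KO. Of these, Kcnmb4 and Kcnk3 reached 5 CPM only in the cells at or above 1%, where they were high, and were counted through them. In cells under 1%, Kcnmb4 was at 2.33 CPM in WT and 3.03 CPM in Npc1KO, and Kcnk3 at 1.92 and 4.05 CPM. The lower ones were the calcium pump genes Atp2a2 (-0.76 and -0.70) and Atp2a3 (-0.33 and -0.46) and Itpr2 (-0.55 and -0.66). Kcnk1, a relative of Kcnk16, was thus higher along with it, at 0.47 and 0.35.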

How the data were processed

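Single cell suspensions of islets were loaded on the 10x Genomics platform. The authors deposited a matrix of raw UMI counts for each library, which the submitters' processing notes trace to Cell Ranger 3.1.0 and mm10. The paper and the labels name different versions of the reagent kit. Those counts had not been normalized or passed through the study's filters. Limits on genes, UMIs, mitochondrial and haemoglobin share were applied here with Python 3.11.15, pandas 2.3.3, numpy 2.4.6 and scipy 1.17.1. The study's methods also list the removal of double cells, which was not part of the filter used here.

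UMIs were summed by library and class and divided by the class total (CPM). Ratios had 0.5 counts added and were set relative to the median gene with at least 5 CPM in either sum. Intervals were exact at 95% (Poisson, Clopper-Pearson, conditional binomial). Depth was 94096566 UMIs in the kept cells of WT and 94392651 in those of Npc1KO, and intervals widen where a gene has few UMIs. Barcodes without a leading hormone were put with the endothelial, stromal or leukocyte marker list when it held at least 10 UMIs and 2 times those of the next list. Doublets were not removed in the values reported. The ratio procedure was tested on simulated data.

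The genes, lists, classes and limits were chosen with earlier results of these data known. Named were all 7 channel genes, Npc1, from each wider list those past the fold and the most abundant, and the 3 closest genes over 16 points. A result of the wider lists is not reported here. Alternatives were other cell filters, Scrublet (scanpy 1.11.5) doublet removal, purer classes, no heat-shocked cells, means over cells, other totals including the TMM factor of edgeR 4.0.16, and other limits. Positions come from GENCODE M21 on GRCm38.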

Additional observations from a re-analysis of the deposited data

How the results depend on the processing

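Of 1506 values computed under alternatives, 1333 stayed within the spread allowed for them, 173 moved and 0 of the called values turned round. The lower Trpm5 in Npc1KO insulin cells kept its direction and stayed past the fold limit in all 13 alternatives, with log2 ratios of -0.99 (stricter cell filter), -0.81 (looser cell filter) and -0.75 (CPM ratio itself) where it moved by more than its interval. Cacna1a stayed past the fold limit in 10 of 13. The number of the 7 genes past the fold limit in insulin cells, 2 as reported, was 1 with the stricter filter, 1 with means over cells, 6 with the CPM ratio itself, 6 at a limit of 15% and 1 at 1.5-fold. In cells under 1% of Ppy and Pyy it was 1, 1 and 5 under the first 3 of these, 4 with totals without hormones and 4 with the division at 0.5%. In cells at or above 1% it was 1 with the stricter filter, 1 among cells of 20000 to 40000 UMIs, 5 with the CPM ratio itself, and 4 with purer classes, means over cells, totals without hormones or the division at 2%. In glucagon cells it was 1 in place of 0 when genes from 1 CPM entered, and in PP cells 1 with that limit, means over cells or the CPM ratio itself. In somatostatin cells, with 1 as reported, it was 0 with the looser filter, without heat-shocked cells or from 20 CPM, 2 with a leading hormone of 20% or genes from 1 CPM, and 4 among cells of 20000 to 40000 UMIs. Insulin against somatostatin cells gave 3 in place of 1 with the CPM ratio itself. Abcc8 UMIs per Kcnj11 UMI in Npc1KO insulin cells became 10.9 with the looser filter. The share of cells with Trpm5 became 22.7% in WT and 13.5% in Npc1KO at 2500 UMIs per cell, and 22.3% in Npc1KO with the stricter filter. The limits of 15% and 1.5-fold and the depth window of 20000 to 40000 UMIs were chosen after seeing the data. Apart from thinning and fold limits, whose construction moves the value, the cause was not tested. No paired analysis was possible because each genotype has 1 library. Of the 4 hormone classes, the somatostatin cells had the fewest UMIs, and Cacna1c rested there on 33 and 21 UMIs.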

Other observations

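Cells that carried neither a leading hormone nor enough markers of another class were left without a name, 163 in WT and 182 in Npc1KO. In these cells Kcnk16 was at 107.1 CPM (90.7 to 125.7) in WT and 209.1 CPM (192.0 to 227.2) in Npc1KO, the highest of any class of the Npc1KO library, with an interval that overlapped with that of PP cells. Cacna1a was at 60.7 CPM (48.5 to 75.1) and 118.8 CPM (106.1 to 132.7), and Cacna1d at 24.3 CPM (16.8 to 33.9) and 56.0 CPM (47.4 to 65.8). Abcc8, at 142.1 and 138.4 CPM, did not differ beyond its intervals, and Trpm5 was at 4.28 and 3.76 CPM. Their median depth was 6809 UMIs in WT and 13606 UMIs in Npc1KO, so that the class need not hold the same kinds of cells in both libraries.

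In leukocyte-marker cells, 233 in WT and 39 in Npc1KO, Kcnk16 was at 12.3 CPM (7.60 to 18.8) on 21 UMIs and 38.4 CPM (24.9 to 56.7) on 25 UMIs. Insulin took 2.52% and 0.714% of the UMIs of these cells.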
